A study of Mus musculus with 9 samples.

Results

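Paternally expressed imprinted genes are transcribed mainly from the chromosome inherited from the father. The 9 genes described here were *Peg3*, *Peg10*, *Mest*, *Snrpn*, *Impact*, *Plagl1*, *Nnat*, *Zrsr1* and *Sgce*. They were chosen by name and not by a cut on their values, but with earlier results of these data known. All 9 were found among the 15074 genes of the expression table. *Igf2*, another gene of this class, was left out by choice. RNA-seq of poly(A) RNA was made from 3 mouse embryonic stem cell (ESC) lines on days 0, 2 and 4 of differentiation into epiblast-like cells, with 1 library for each of the 9 conditions. The lines were J1 ESCs (WT), *Dnmt1*-/- ESCs derived from J1 (1KO), and 1KO ESCs with a transgene for catalytically inactive DNMT1 carrying the C1229S substitution (1KO+1CI). The transgene was driven by the ubiquitous CAG promoter and linked through an IRES to zeocin resistance, and transfected colonies were grown separately into clones. More than one clone was established, and the sample labels do not say which was sequenced. The column headers of this line read CI6 on all 3 days, a name that the sources used here do not explain. On day 0 the ESCs were cultured with LIF and serum on mitomycin C-treated mouse embryonic fibroblasts. These feeder cells were depleted on gelatin before the ESCs formed embryoid bodies without LIF for 1 day, and the embryoid bodies were then cultured as adherent cells. Since no condition was sequenced more than once, a difference between single libraries has no replicate error.

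At imprinted loci, a differentially methylated region carries DNA methylation on the copy from only one parent, set in that parent's germline. For most paternally expressed genes the methylated copy is the maternal one, and methylation there accompanies its silence. DNMT1 copies methylation to the new strand when DNA is replicated, while ZFP57 and TRIM28 bind the methylated copy and protect it during early development. The FPKM values used here, reads per kilobase of transcript scaled to library size, sum the RNA of both parental copies and hold no information on the allele.

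The targeted gene was low in the 1KO libraries. *Dnmt1* was at 74.0, 80.4 and 48.5 FPKM in WT on days 0, 2 and 4, at 13.7, 17.4 and 12.3 FPKM in 1KO, and at 315, 129 and 158 FPKM in 1KO+1CI. The depth recovered from the table was between 20100000 and 28000000 reads per library, if 1 step of the values is 1 read. At that depth each of the 9 genes had between about 140 and 42427 reads in a library. These reads were computed from FPKM, depth and the longest coding transcript, and were not counted. Intervals given for ratios are 95% binomial (Clopper-Pearson) intervals on these approximate reads. They cover counting error only and are themselves approximate. Feeder fibroblast genes summed higher in both mutant lines than in WT on days 0 and 4, and on day 2 in 1KO+1CI only. Their 19 measured markers summed to 643, 998 and 1180 FPKM in WT, 1KO and 1KO+1CI on day 0. The sums were 403, 348 and 441 FPKM on day 2, and 358, 393 and 864 FPKM on day 4. None of the markers was at 0 in any library, but the table holds no value of 0 for any gene. Much of the day 4 sum was *Tagln*, at 171, 177 and 417 FPKM in WT, 1KO and 1KO+1CI. In the 1KO+1CI library of day 4, *Acta2* was at 147 FPKM and the collagen gene *Col1a1* at 9.86 FPKM. In RNA of mixed cells, more cells of a type and more RNA per cell cannot be told apart.

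The start regions of 4 genes are shown because *Mest* and *Snrpn* had the best supported difference between 1KO and WT, *Peg3* had the largest, and *Nnat* was above WT in both mutant lines on days 2 and 4 but not on day 0. Each sequence is the RefSeq window (GRCm38.p6) of 250 bases before and 30 bases after an annotated start, read 5′ to 3′ along the gene, with every CpG, the dinucleotide that DNMT1 methylates, in capitals. Where RefSeq lists several starts, the one with most CpGs was taken. The windows are chr7:6730390-6730669 on the minus strand for *Peg3*, chr6:30737800-30738079 on the plus strand for *Mest*, chr7:60005170-60005449 on the minus strand for *Snrpn*, and chr2:157559828-157560107 on the plus strand for *Nnat*.
Peg3: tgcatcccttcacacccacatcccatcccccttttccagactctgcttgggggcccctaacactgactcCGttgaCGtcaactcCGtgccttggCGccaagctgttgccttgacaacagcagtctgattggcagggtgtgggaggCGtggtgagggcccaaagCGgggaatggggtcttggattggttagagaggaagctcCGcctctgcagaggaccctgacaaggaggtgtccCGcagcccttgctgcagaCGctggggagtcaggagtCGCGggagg
Mest: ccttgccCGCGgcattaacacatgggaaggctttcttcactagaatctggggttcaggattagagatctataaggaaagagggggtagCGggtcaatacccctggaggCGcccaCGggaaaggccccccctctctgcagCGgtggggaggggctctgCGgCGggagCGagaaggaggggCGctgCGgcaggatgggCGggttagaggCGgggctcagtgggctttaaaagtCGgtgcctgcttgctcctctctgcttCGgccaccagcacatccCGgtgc
Snrpn: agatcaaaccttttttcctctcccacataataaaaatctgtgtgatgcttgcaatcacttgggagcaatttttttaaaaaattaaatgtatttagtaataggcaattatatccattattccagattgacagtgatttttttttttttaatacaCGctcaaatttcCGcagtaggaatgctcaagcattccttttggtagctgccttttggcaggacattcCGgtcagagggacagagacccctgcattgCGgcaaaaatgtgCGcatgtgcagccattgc
Nnat: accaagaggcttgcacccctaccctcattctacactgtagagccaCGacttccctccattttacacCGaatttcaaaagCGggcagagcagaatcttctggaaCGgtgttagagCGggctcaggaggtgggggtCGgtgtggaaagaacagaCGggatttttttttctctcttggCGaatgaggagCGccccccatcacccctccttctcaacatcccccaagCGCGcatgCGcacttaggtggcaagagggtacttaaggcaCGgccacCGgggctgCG

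Such windows were at hand for 6 of the 9 genes. They held 11 CpGs in *Peg3*, 16 in *Mest*, 5 in *Snrpn*, 22 in *Plagl1*, 15 in *Nnat* and 9 in *Zrsr1*, against a median of 6 and quartiles of 2 and 19 over all 32851 windows of this length. Thus only *Plagl1* lay above the upper quartile. TGCCGC, the hexamer that ZFP57 binds when it is methylated, was found on either strand in the windows of *Mest* (2 matches), *Snrpn* and *Plagl1* (1 match each), and in 10.4% of all windows. GCCATNTT, a core recognised by the zinc finger protein YY1, was found in none of the 6 windows and in 5.22% of all windows. Matches of the 2 motifs can share only their end bases. The windows of *Mest* and *Snrpn* were picked for most CpGs among several starts, while the values over all windows had no such pick. Since TGCCGC holds a CpG, the comparison with all windows is not like for like. These matches describe the letters of the windows only.

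*Peg3* and *Plagl1* encode zinc finger transcription factors, and *Plagl1* (also called *Zac1*) is known as a regulator of growth and of other imprinted genes. *Peg3*, on chr7:6703892-6730431, was at 16.3, 12.7 and 11.6 FPKM in WT on days 0, 2 and 4, at 28.7, 35.3 and 76.5 FPKM in 1KO, and at 27.2, 45.6 and 115 FPKM in 1KO+1CI. All 6 mutant libraries were above all 3 WT libraries, and the lines moved apart with time: WT was lowest on day 4, when both mutant lines were highest. The ratio of 1KO to WT was 1.76 on day 0 (counting interval 1.68 to 1.84) and 6.58 on day 4 (6.29 to 6.89). *Plagl1*, on chr10:13060504-13131694, was far less abundant. Its level was 2.57, 1.47 and 1.98 FPKM in WT, 5.91, 4.69 and 11.7 FPKM in 1KO, and 6.24, 5.63 and 18.96 FPKM in 1KO+1CI. Again no mutant library reached down to the WT range, and the ratio of 1KO to WT was 2.30 on day 0 (2.01 to 2.65) and 5.92 on day 4 (5.12 to 6.85).

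**Figure D1:**
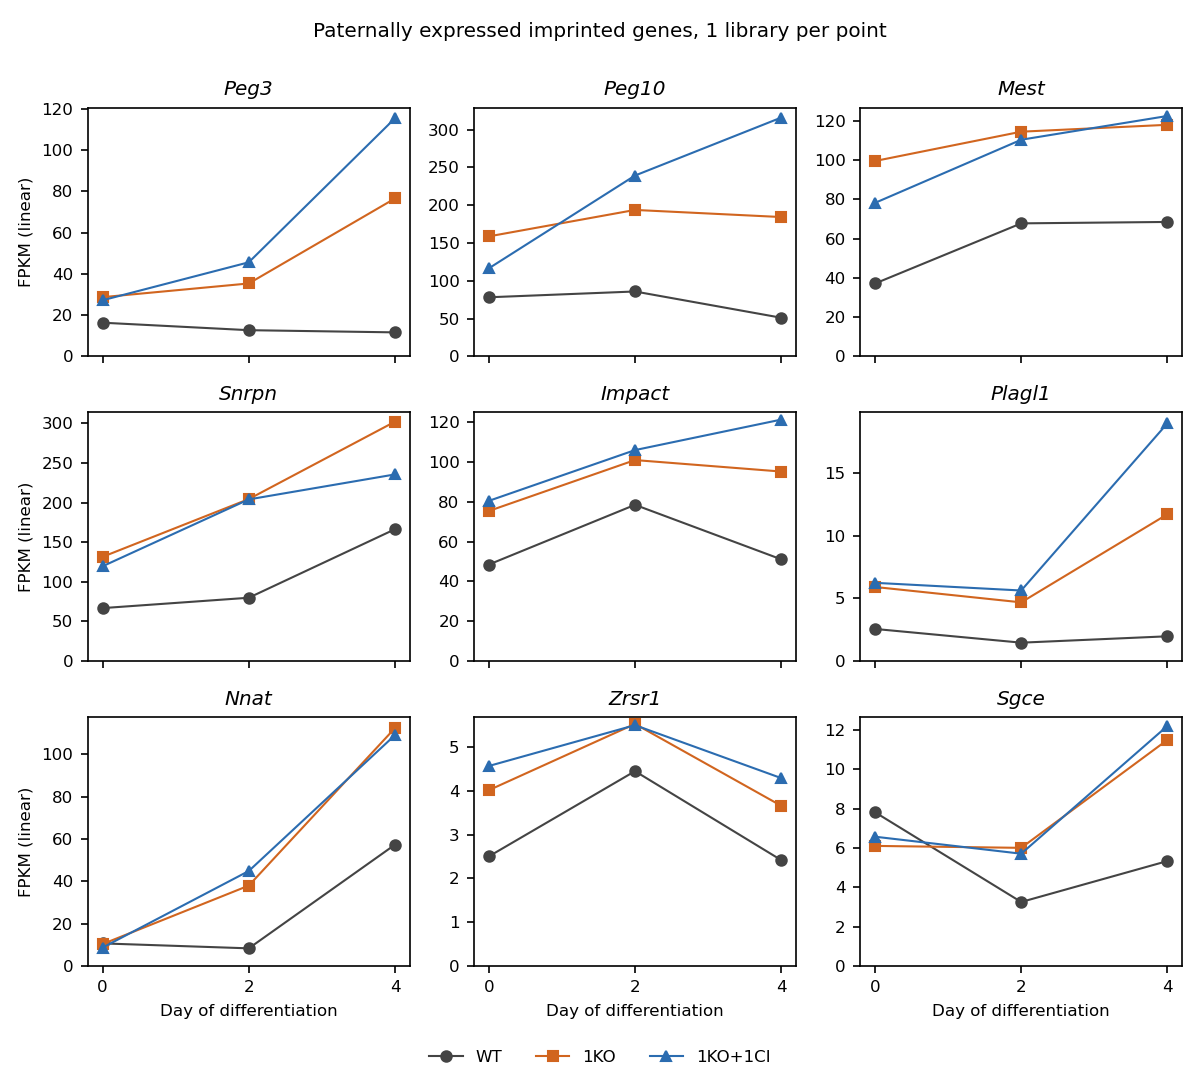
FPKM (linear axis from 0) of the 9 paternally expressed imprinted genes against day of differentiation, 1 panel per gene and 1 library per point, for WT (circles), 1KO (squares) and 1KO+1CI (triangles). Both mutant lines lie above WT on each day in 7 panels, while in *Nnat* and *Sgce* they do so on days 2 and 4 and lie below WT on day 0.

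*Peg10* and *Sgce* are divergent neighbours on chromosome 6 with annotated starts 99 bases apart. *Peg10* derives from a retrotransposon and is needed for the placenta, and *Sgce* encodes epsilon-sarcoglycan, a membrane protein of the dystrophin-associated complex. *Peg10*, on chr6:4747306-4760517, was at 78.2, 85.9 and 51.1 FPKM in WT, at 159, 194 and 184 FPKM in 1KO, and at 116, 239 and 316 FPKM in 1KO+1CI, so that each mutant library was above each WT library. *Sgce*, on chr6:4674350-4747207, was at 7.82, 3.25 and 5.33 FPKM in WT, at 6.10, 6.01 and 11.5 FPKM in 1KO, and at 6.57, 5.71 and 12.2 FPKM in 1KO+1CI. For *Sgce* the groups overlapped, since WT was highest of the lines on day 0 and lowest on days 2 and 4. The ratio of 1KO to WT of *Sgce* was 0.781 on day 0 (0.663 to 0.921), 1.85 on day 2 (1.495 to 2.31) and 2.16 on day 4 (1.83 to 2.56), while that of *Peg10* was 2.03 (1.99 to 2.08), 2.26 (2.21 to 2.30) and 3.61 (3.51 to 3.70). The strand setting of the counting is not given in the sources used here, so reads from the shared start region cannot be assigned with certainty.

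*Snrpn* and *Zrsr1* encode proteins of pre-mRNA splicing. *Snrpn*, on chr7:59982495-60140219, makes the small nuclear ribonucleoprotein SmN of neurons and lies in the region that corresponds to the human Prader-Willi locus. It was at 66.8, 79.9 and 166 FPKM in WT, at 132, 204 and 302 FPKM in 1KO, and at 120, 204 and 235 FPKM in 1KO+1CI. Its level was higher on later days in each line, and the WT library of day 4 was above both mutant libraries of day 0. The ratio of 1KO to WT was 1.97 on day 0 (1.88 to 2.06), 2.56 on day 2 (2.46 to 2.65) and 1.82 on day 4 (1.76 to 1.87). *Zrsr1*, on chr11:22972005-22976496, is a retrogene related to the splicing factor U2AF, and reads shared with its parent gene *Zrsr2* could have been split between them. It was the lowest of the 9 genes in 6 libraries, with 2.50, 4.45 and 2.42 FPKM in WT, 4.02, 5.53 and 3.66 FPKM in 1KO, and 4.57, 5.50 and 4.29 FPKM in 1KO+1CI. All 3 lines were highest on day 2, and the ratio of 1KO to WT was smallest then, at 1.24 (1.10 to 1.41).

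*Mest* encodes a protein of the alpha/beta hydrolase fold linked to growth, and *Impact* encodes an inhibitor of GCN2, the kinase that slows translation when amino acids are scarce. *Mest*, on chr6:30723547-30748465, was at 37.1, 67.7 and 68.4 FPKM in WT, at 99.5, 114 and 118 FPKM in 1KO, and at 78.1, 110 and 122 FPKM in 1KO+1CI. The lowest mutant library, 1KO+1CI on day 0, was above the highest WT library. The ratio of 1KO to WT was 2.68 on day 0 (2.55 to 2.82) and 1.69 on day 2 (1.63 to 1.76), when the WT level was nearer to that of 1KO. *Impact*, on chr18:12955852-12992950, was at 48.5, 78.4 and 51.1 FPKM in WT, at 75.3, 101 and 95.1 FPKM in 1KO, and at 80.4, 106 and 121 FPKM in 1KO+1CI. Its groups overlapped by a narrow margin, as the WT library of day 2 was above the 1KO library of day 0.

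*Nnat*, on chr2:157560078-157562522, encodes neuronatin, a small membrane protein of neural and endocrine cells. It was at 10.6, 8.28 and 57.2 FPKM in WT, at 10.3, 37.9 and 112 FPKM in 1KO, and at 8.65, 44.8 and 109 FPKM in 1KO+1CI. On day 0 the ratio of 1KO to WT was 0.971, with an interval from 0.825 to 1.14 that includes 1. On day 2 the mutant libraries were above their day 0 level and the WT library was not, and the ratio was 4.58 (3.98 to 5.30). On day 4 the WT library was above its earlier levels as well, and the ratio was 1.96 (1.84 to 2.09). In order of level, *Peg10* and *Snrpn* held the first 2 places in 8 of the 9 libraries and *Zrsr1* or *Plagl1* the last in all 9. With 1 library per condition, neighbours in that order cannot be set against a spread.

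**Figure D2:**
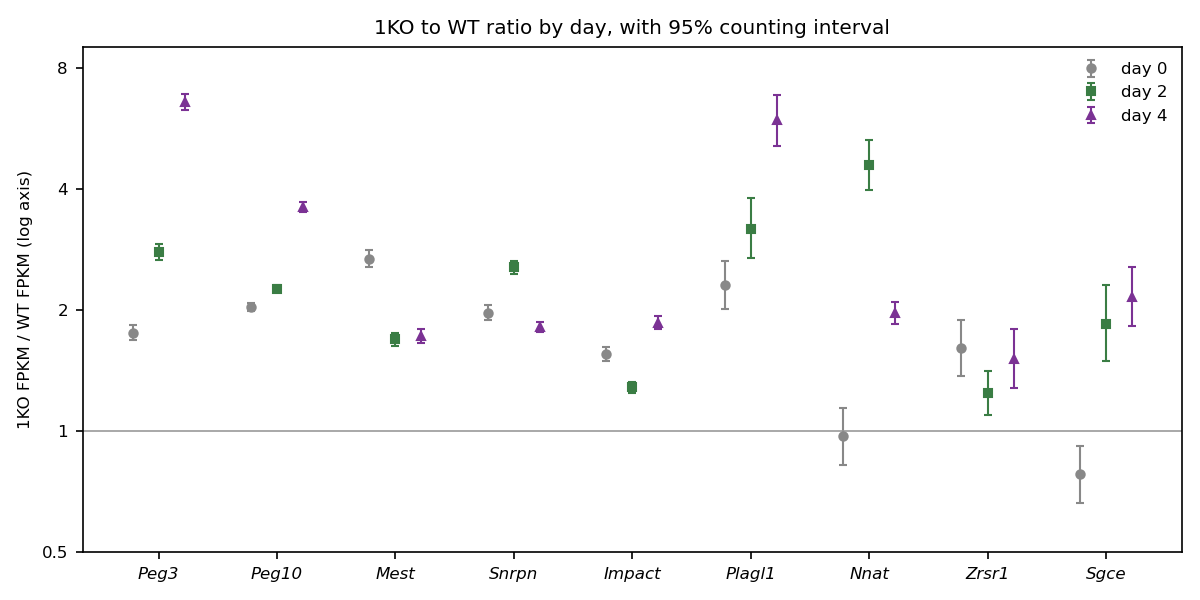
Ratio of 1KO to WT FPKM (log axis) of the 9 genes on days 0, 2 and 4, 1 library of each line per ratio. Bars are 95% binomial intervals on approximate reads, for counting error only. The ratio is over 1 in 25 of 27 cases, with *Nnat* and *Sgce* on day 0 as the others.

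The loss of DNMT1 was addressed first by 1KO against WT. All 9 genes had a positive average difference, and *Mest* and *Snrpn* passed the test. The test was limma with a mean-dependent prior on log2(FPKM + 1), fitted over all 15074 genes and 9 libraries with line and day as terms, and its p-values were adjusted by Benjamini-Hochberg over all genes. In this fit the scatter comes from the way the difference between lines varies over days together with the noise of libraries, and it leaves 4 residual degrees of freedom. *Mest* was 0.97 higher in 1KO on the log2(FPKM + 1) scale (SE 0.13, adjusted p = 0.018) and *Snrpn* 1.06 higher (SE 0.14, adjusted p = 0.0191). Thus 2 of the 9 genes were called higher, against 0.71% of all genes. None of the 9 was called lower, against 1.15% of all genes. Since the 9 genes were chosen with earlier results known, these shares and those of the comparisons below are descriptions, not tests of the set.

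The other 7 genes did not pass. *Peg3* differed by 1.60 (95% interval 0.71 to 2.49, adjusted p = 0.0882), *Plagl1* by 1.42 (0.74 to 2.09, adjusted p = 0.0567) and *Peg10* by 1.34 (0.63 to 2.04, adjusted p = 0.0773). *Impact* differed by 0.62 (0.30 to 0.94, adjusted p = 0.0723). The differences of *Nnat* (1.00), *Sgce* (0.46) and *Zrsr1* (0.41) had adjusted p-values between 0.23 and 0.445. The genes with the largest differences were therefore not those with the smallest p, and the standard errors of *Peg3*, *Peg10* and *Plagl1* were 0.39, 0.31 and 0.29. Before adjustment, 8 of the 9 had p below 0.05, all but *Sgce*, against 2267 of the 15074 genes, and the median difference of the 9 was 1.00 against 0.00 for all genes.

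Leaving out single libraries changed these calls, and it changed the number called over all genes too. In the full fit 281 of the 15074 genes passed in either direction. Only 43 did so without the WT library of day 2. Without the 1KO library of day 0, 2 or 4 the numbers were 7, 13 and 9. Without the WT library of day 2, or without any 1 of the 3 1KO libraries, none of the 9 genes passed in limma. In these fits 6 to 8 of them had an unadjusted p below 0.05. Of all genes, 2015 had such a p without the WT library of day 2, and 1515, 1399 and 1958 without the 1KO library of day 0, 2 or 4. Without the WT library of day 0, 7 passed, and without the 1KO+1CI library of day 4, 4 passed, against 260 and 180 of all genes. With the day 0 libraries left out altogether, none passed and 8 had an unadjusted p below 0.05, on 2 residual degrees of freedom. Of all genes, 9 passed in that fit and 1815 had an unadjusted p below 0.05. The median difference of the 9 genes was then 1.10, and *Mest* and *Snrpn* were 0.76 and 1.10 higher in 1KO.

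**Figure D3:**
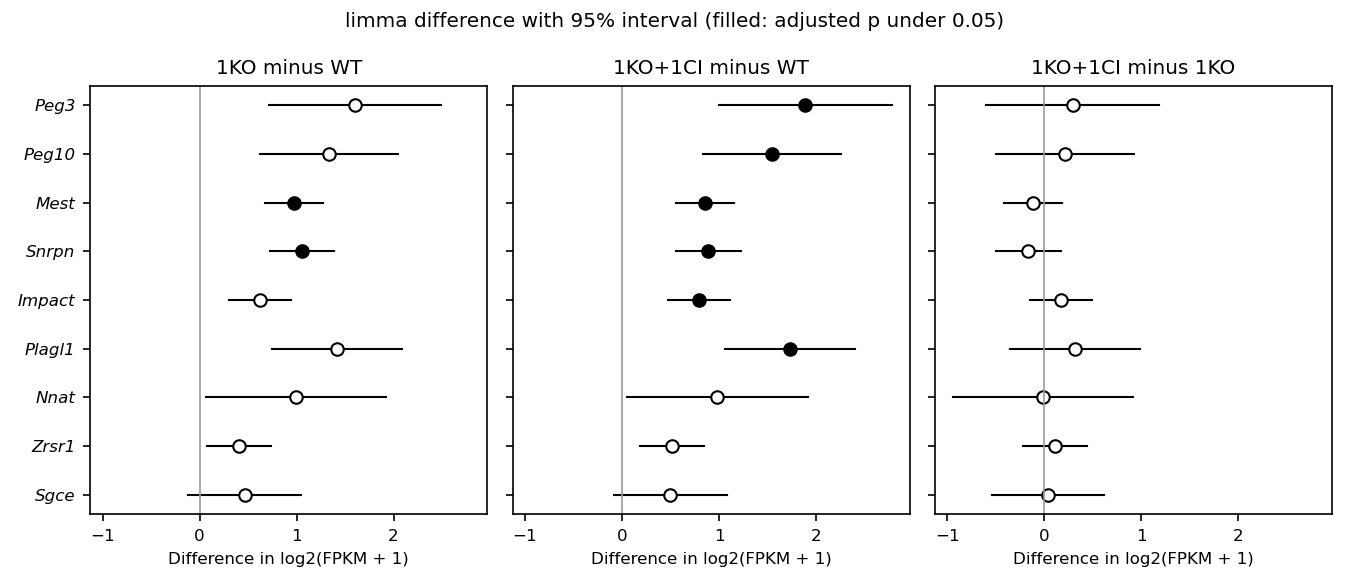
Differences between lines on the log2(FPKM + 1) scale for the 9 genes from the limma fit over 9 libraries, with 95% intervals, and filled points where the adjusted p over 15074 genes is under 0.05. For 1KO minus WT 2 genes are filled and for 1KO+1CI minus WT 6, while every interval for 1KO+1CI minus 1KO spans 0.

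Against WT, 1KO+1CI had 6 of the 9 genes called higher, compared with 1.8% of all genes, and none called lower, compared with 2.14%. These were *Peg3* (1.89 higher, adjusted p = 0.0391), *Plagl1* (1.73, adjusted p = 0.0224), *Peg10* (1.55, adjusted p = 0.0365), *Snrpn* (0.89, adjusted p = 0.0192), *Mest* (0.86, adjusted p = 0.0162) and *Impact* (0.79, adjusted p = 0.0246). *Nnat* (0.98), *Zrsr1* (0.52) and *Sgce* (0.50) did not pass. Leaving out the 1KO+1CI library of day 2 left none called in limma, with 7 below 0.05 before adjustment, and leaving out that of day 0 or day 4 left 1. Before adjustment, 2503 of all genes were below 0.05 without the 1KO+1CI library of day 2, against 3088 in the full fit. Over all genes, 593 were called in either direction in the full fit. The numbers were 82, 67 and 99 without the 1KO+1CI library of day 2, 0 or 4. Leaving out the 1KO library of day 2 also left 1, and leaving out the WT library of day 2 or the 1KO library of day 4 left 3, while 8 were called without the WT library of day 0. In that order, 181, 208, 330 and 536 of all genes were called. On days 2 and 4 alone none passed, against 17 of all genes. Before adjustment 8 were below 0.05, against 2544 of all genes, and the median difference of the 9 was 0.92. In this comparison 7 of 19 feeder fibroblast markers (median 0.92) and 7 of 11 primitive and visceral endoderm markers (median 0.72) were also called higher, and their part in the result was not tested. The same WT libraries serve as reference here and in the previous comparison.

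The effect of the inactive protein in cells without DNMT1 was addressed by 1KO+1CI against 1KO. None of the 9 genes passed in limma, and none had an unadjusted p below 0.05. Of all genes, 1 passed, which is 0.00663% of those tested, and this was *Dnmt1* itself, which the transgene supplies. The differences of the 9 genes lay between −0.17 and 0.31 on the log2(FPKM + 1) scale. The interval was narrow for *Mest* (−0.41 to 0.19), *Snrpn* (−0.50 to 0.17) and *Impact* (−0.15 to 0.49), and wide for *Peg3* (−0.60 to 1.18) and *Nnat* (−0.94 to 0.92). A change of 1 log2 unit in either direction lay outside the interval of each gene except *Peg3*. The margin was small for *Nnat*, *Peg10* (−0.50 to 0.92) and *Plagl1* (−0.36 to 0.985). Feeder markers also differed here, with all 19 positive, none called and a median of 0.48. So did primitive and visceral endoderm markers, with all 11 positive, none called and a median of 0.46. The part of either list was not tested. By day, 1KO+1CI was above 1KO in 16 of 27 cases, while the share of all genes above was 47.6%, 53.5% and 50.0% on days 0, 2 and 4. On day 4 it was above in 7 of the 9 genes, with *Peg10* at a difference of 0.77, *Plagl1* at 0.65 and *Peg3* at 0.59, and *Snrpn* was 0.36 below. The 1KO libraries are shared by this comparison and that of 1KO with WT.

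Taken day by day, 1KO was above WT in 25 of 27 cases, and so was 1KO+1CI, with *Nnat* and *Sgce* on day 0 as the exceptions in both. Of the 9 genes, 7 were above WT on all 3 days in 1KO, against 16.5% of all genes, and 7 in 1KO+1CI, against 19% of all genes. For *Peg3*, *Peg10*, *Mest* and *Plagl1* the 6 mutant libraries did not overlap with the 3 WT libraries, a separation with the mutant lines higher in 2.29% of all genes. A difference of at least 1 log2 unit (2-fold on FPKM + 1) from WT to 1KO was reached by *Mest* and *Peg10* on day 0, where 2.24% of all genes reached it upwards. On day 2 it was reached by *Peg3*, *Peg10*, *Snrpn*, *Plagl1* and *Nnat*, against 1.6% of all genes. On day 4 it was reached by *Peg3*, *Peg10* and *Plagl1*, against 1.67%, and by none of the 9 downwards on any day. Between 1KO+1CI and 1KO, none of the 9 reached it in either direction, against 0.418%, 0.338% and 0.915% of all genes on days 0, 2 and 4. With libraries scaled to a common sum, 1 gene reached it from WT to 1KO on day 0 and 5 on day 4. The share of all genes reaching it was not computed under that scaling. The day 4 median of all genes was 0.046 under it and 0.005 without it. These single-library counts have no test.

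Over time, averaged over the 3 lines, *Mest*, *Snrpn* and *Impact* were called higher on day 2 than on day 0, by 0.51, 0.55 and 0.50 on the log2 scale, with adjusted p-values in limma of 0.0352, 0.0393 and 0.0483. These 3 of 9 genes compare with 7.34% of all genes called higher. On day 4 *Nnat* (3.05, adjusted p = 0.00221), *Snrpn* (1.16, adjusted p = 0.00191) and *Mest* (0.58, adjusted p = 0.0166) were called higher than on day 0, compared with 11.3% of all genes. The day 2 calls changed when single libraries were left out: none passed without the 1KO+1CI library of day 0 or day 2 or the 1KO library of day 2, with 3 or 4 genes below an unadjusted p of 0.05. Over all genes, 2328 were called on day 2 in either direction, and 764, 771 and 445 without those libraries. Before adjustment, 4833 of the 15074 genes were below 0.05 in the full fit. Without those libraries 3795, 3768 and 3253 were. *Mest* alone passed without the 1KO library of day 0 or of day 4. Without the WT library of day 0 all 3 lost the call and *Nnat* alone passed, and without a trend in the prior all 3 lost it and *Zrsr1* alone passed. *Impact* also lost its call under median-ratio scaling. For day 4, 6 passed without the WT library of day 0 or of day 4, and 2 without the 1KO+1CI library of day 0 or of day 4. In that order, 4127, 3295, 1366 and 1992 of all genes were called on day 4, against 3554 in the full fit. In *Peg3* the lines followed different courses, and day 4 minus day 0 gave −0.46 for WT, 1.39 for 1KO and 2.04 for 1KO+1CI. *Plagl1* and *Sgce* likewise had values below day 0 in WT (−0.26 and −0.48) and above it in 1KO (0.88 and 0.82) and 1KO+1CI (1.46 and 0.80). With 1 library per condition, whether the course differs between lines could not be tested.

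Several neighbours at the same loci had similar values. *Snurf*, on chr7:59995449-60005049, is made from the same transcript as *Snrpn*, so reads could be assigned to either. It was at 79.6, 95.6 and 199 FPKM in WT and at 156, 240 and 358 FPKM in 1KO. *Snhg14*, the host RNA of the small nucleolar RNAs downstream of *Snrpn*, was at 6.92, 8.36 and 16.9 FPKM in WT, at 12.9, 20.6 and 30.7 FPKM in 1KO, and at 12.0, 20.9 and 23.9 FPKM in 1KO+1CI. Both passed the limma test for 1KO against WT, at differences of 1.04 and 0.95 with adjusted p-values of 0.0191 and 0.024. *Ube3a*, the maternally expressed gene of that region in neurons, was at 16.2, 21.2 and 15.6 FPKM in WT and at 15.6, 20.1 and 14.8 FPKM in 1KO, and its difference of −0.07 did not pass (adjusted p = 0.818). *Usp29*, whose start lies 147 bases from that of *Peg3* on the other strand, was at or below 0.317 FPKM in WT and between 0.43 and 0.851 FPKM in 1KO, and its difference of 0.47 did not pass (adjusted p = 0.23).

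Host and flanking genes had smaller differences. *Nnat* lies inside *Blcap*, which was at 9.65, 12.2 and 8.51 FPKM in WT and 10.6, 10.8 and 9.85 FPKM in 1KO, a difference of 0.05 (adjusted p = 0.901). *Zrsr1* lies inside *Commd1*, on the other strand. *Commd1* was at 50.9, 46.9 and 61.8 FPKM in WT, at 41.6, 37.6 and 44.3 FPKM in 1KO, and at 40.8, 38.3 and 44.8 FPKM in 1KO+1CI, so it was lower in the mutant lines on each day while *Zrsr1* was higher, although its difference of −0.36 did not pass (adjusted p = 0.075). *Copg2*, which overlaps the end of *Mest*, was 0.31 higher in 1KO (adjusted p = 0.132), and *Casd1*, near *Peg10* and *Sgce*, was −0.25 different (adjusted p = 0.501). *Hymai*, a paternal RNA of the *Plagl1* locus, and *Zim1*, a maternally expressed neighbour of *Peg3*, stayed at or below 0.401 FPKM in all libraries.

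Among further imprinted genes, 18 of 24 listed other paternally expressed genes were measured. Of these, *Snurf*, *Snhg14*, *Mcts2* and *Peg13* were called higher in 1KO than in WT, none was called lower, and the median difference was 0.44. *Mcts2*, a retrogene for a translation factor inside an intron of *H13*, was at 9.62, 15.8 and 10.5 FPKM in WT and between 19 and 24.0 FPKM in 1KO. *Peg13*, a noncoding RNA on chromosome 15, was at 0.459, 0.546 and 0.442 FPKM in WT and at 1.37, 2.03 and 1.78 FPKM in 1KO. The lowest of that list was *Sfmbt2*, at −0.10 (adjusted p = 0.944). Of 27 measured maternally expressed genes, *H19* (3.71, adjusted p = 0.012) and *Mirg* (1.03, adjusted p = 0.0238) were called higher and *Grb10* (−2.06, adjusted p = 0.0281) lower, with a median of 0.05. Of 23 measured genes at the loci of the 9 genes, *Snurf* and *Snhg14* were called higher and none lower, with a median of 0.16 and the lowest difference in *Osbpl1a*, a neighbour of *Impact* (−0.39, adjusted p = 0.187).

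Of 20 guardians of imprints and DNA methylation, *Dppa3*, which protects methylation in the early embryo, was called higher in 1KO (1.08, adjusted p = 0.0121) and *Dnmt1* lower (−2.13, adjusted p = 0.0161). *Zfp57* was at 37.0, 132 and 16.7 FPKM in WT and at 92.7, 106 and 15.8 FPKM in 1KO, and its difference of 0.30 did not pass (adjusted p = 0.75). *Trim28* was above 384 FPKM in every library, and its difference of 0.19 did not pass (adjusted p = 0.578).

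Markers of other cells and states also had different values between the lines, and their part in the results for the 9 genes was not tested. Of the 19 feeder fibroblast markers, 17 were above WT in 1KO on day 0, 14 on day 2 and 13 on day 4, and in 1KO+1CI the numbers were 17, 16 and 17. *Col5a2* and *S100a4* were called higher in 1KO than in WT (1.27 and 1.19, adjusted p = 0.0164 and 0.0468), with a median of 0.41 over the list, and *Twist2* had the lowest difference (−0.27, adjusted p = 0.535). *Col1a1*, the collagen that marks fibroblasts, was at 39.0, 4.17 and 5.07 FPKM in WT, at 76.0, 5.63 and 3.76 FPKM in 1KO, and at 74.4, 9.41 and 9.86 FPKM in 1KO+1CI.

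Of 11 measured primitive and visceral endoderm markers, none was called in 1KO against WT and 7 were called higher in 1KO+1CI against WT. Their sum was 68.8, 37.8 and 61.4 FPKM in WT, 79.5, 51.8 and 82.9 FPKM in 1KO, and 96.2, 79.2 and 135 FPKM in 1KO+1CI, and *Gata6* and *Gata4* had the highest and lowest difference in 1KO (0.75 and −0.30, adjusted p = 0.0594 and 0.295). The 7 measured primitive streak and mesoderm markers summed to 152, 57.0 and 48.8 FPKM in WT on days 0, 2 and 4. Their sums were 154, 70.1 and 199.6 FPKM in 1KO, with a like sum in 1KO+1CI on day 4. Most of this was *Lefty2*, at 148 and 36.4 FPKM in WT and 146 and 129 FPKM in 1KO on days 0 and 4. On day 4 each of the 7 was higher in both mutant lines than in WT. *T* was then at 2.07, 29.2 and 27.2 FPKM in WT, 1KO and 1KO+1CI. In the same order *Mixl1* was at 0.581, 6.50 and 6.66 FPKM and *Eomes* at 8.51, 29.9 and 38.55 FPKM. The fit averages over days, and a difference on 1 day alone adds to its scatter. None of these markers was called in 1KO against WT, from *T* (1.29, adjusted p = 0.368) to *Lhx1* (0.34, adjusted p = 0.475). None of the 12 naive pluripotency genes was called, from *Klf4* (0.70, adjusted p = 0.07) to *Klf2* (−0.88, adjusted p = 0.0723). The same held for the 8 epiblast genes, from *Fgf5* (0.74, adjusted p = 0.569) to *Slc7a3* (−0.11, adjusted p = 0.749), and for 7 trophoblast genes, from *Ascl2* (0.58, adjusted p = 0.46) to *Tead4* (−0.24, adjusted p = 0.826). Of 8 neural ectoderm genes, *Pax6* was called lower (−0.76, adjusted p = 0.034) and *Zic2* had the highest difference (0.03, adjusted p = 0.96).

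The 9 genes did not all follow one pattern over the libraries. Over the 9 libraries, which share lines and days, Pearson's r of log2(FPKM + 1) between pairs of the 9 genes ran from −0.14 to 0.97 over 36 pairs, with a median of 0.69. *Peg3* and *Plagl1* were most alike (0.97) and *Zrsr1* and *Sgce* least (−0.14). Among 13288 genes that reached 1 FPKM in some library, the most like *Peg3* were *Peg3os*, its antisense RNA, and *Usp29* (r = 1.00 and 0.98), and the most like *Snrpn* were *Snurf* and *Snhg14* (both 1.00). These overlap or adjoin the gene they resemble. *Peg10* was nearest to *Cited4* and *Peg13* (0.96 and 0.95), *Mest* to *Sppl2b* and *Pdxk* (0.98 and 0.97), and *Impact* to *Slc4a2* and *Gpaa1* (both 0.95). *Plagl1* was nearest to *Peg3* and *Prn* (0.97 and 0.96), *Nnat* to *Magel2*, a paternally expressed gene of the *Snrpn* region, and *Fjx1* (both 0.98), *Zrsr1* to *Cdkl2* and *Nrros* (both 0.97), and *Sgce* to *Erap1* and *Gbp3* (0.98 and 0.97). *Magel2* was at 0.652, 0.835 and 4.71 FPKM in WT and at 0.947, 3.67 and 6.80 FPKM in 1KO, so that like *Nnat* it was higher on day 2 than on day 0 in 1KO by far more than in WT.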

How the data were processed

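Per the labels and the study's methods, the authors used Trim Galore for trimming, HISAT2 for mapping to mm10 and HOMER for counting and normalization to FPKM. The deposited FPKM values were used unchanged. How reads with several alignments were treated, the strand setting, the annotation and tool versions were not given in the sources used here. Of 15095 entries, 21 with a date or 0 in place of a symbol were left out, and no value was 0. The second deposited table, of repeats, was not used here.

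Differences were taken on log2(FPKM + 1), which understates changes of low genes. limma 3.58.1 in R 4.3.3 was fitted as *line + day*, with 4 residual and 4 prior degrees of freedom and a threshold of 0.05. Its p-values measure the scatter of single libraries around line and day, not that between cultures or clones. Both limma and depth scripts were tested on simulated data. Depth came from the steps in FPKM of 1776 genes with 1 transcript, and approximate reads from that depth and the longest coding transcript of GENCODE M21 (GRCm38), which also gave gene positions. Promoter windows came from RefSeq (GRCm38.p6). Python 3.11.15 was used for the rest.

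The 9 genes and all gene lists were chosen with earlier results of these data known. The genes named are the 9, fixed neighbours at their loci and a few guardians of imprints, the highest and lowest gene of each list for 1KO minus WT, and the 2 genes most like each of the 9. Further genes were named after their values were seen, namely list members that passed the test. The same holds for the levels of *Col1a1*, *Magel2*, *Tagln*, *Acta2*, *Lefty2*, *Mixl1* and *Eomes*. Alternatives were pseudocounts of 0.1 and 0.01, only genes reaching 1 FPKM somewhere, common-sum and median-ratio scaling, no trend in the prior, and leaving out each library.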

Additional observations from a re-analysis of the deposited data

Results flagged for a closer look

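*Nnat* and *Sgce* were singled out because both mutant lines lay on one side of WT on day 0 and on the other side on days 2 and 4. For *Nnat*, the mean difference of 1KO and 1KO+1CI from WT on the log2(FPKM + 1) scale was −0.153 on day 0, 2.19 on day 2 and 0.939 on day 4. For *Sgce* it was −0.265 on day 0, 0.689 on day 2 and 1.02 on day 4. The difference between days was not tested, since each condition has 1 library.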

How the results depend on the processing

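No paired analysis was possible because no condition has replicates that a number could pair, beyond the comparison of lines within days that the fit itself makes. For the 9 genes, 594 of 702 values from the fit under another setting kept their direction and their side of the threshold, 71 lost the call and 22 gained it. The other 15 changed sign, all of them differences that passed the test under neither setting. With a common sum per library this was *Nnat* for 1KO+1CI against 1KO (0.0268), and with days 2 and 4 only, *Nnat* (0.0963) and *Mest* (0.00104) for that comparison. Leaving out 1 library at a time, that comparison ranged from −0.112 to 0.678 for *Peg3*, −0.194 to 0.619 for *Peg10*, −0.206 to 0.0496 for *Mest*, −0.0242 to 0.552 for *Plagl1*, −0.403 to 0.355 for *Nnat* and −0.172 to 0.202 for *Sgce*, while *Peg3* on day 2 against day 0 ranged from −0.163 to 0.728 and *Peg10* on day 4 against day 0 from −0.0604 to 0.736. Leaving out 1 library at a time gave between 0 and 7 genes called for 1KO against WT, between 0 and 8 for 1KO+1CI against WT, between 0 and 3 for day 2 against day 0, and between 2 and 6 for day 4 against day 0. Over all genes the numbers ran from 7 to 356, from 67 to 684, from 445 to 2938 and from 1366 to 4127. With days 2 and 4 only, chosen after the feeder markers had been seen, 0 genes were called in limma for 1KO against WT and 0 for 1KO+1CI against WT, with 8 below an unadjusted p of 0.05 in each. Of all genes, 9 and 17 were called then, and 1815 and 2544 had an unadjusted p below 0.05. Without a trend in the prior, 1 gene was called for day 2 against day 0, and it was *Zrsr1*, which was not called otherwise (0.41). With a common sum per library, 1 gene reached 2-fold between 1KO and WT on day 0 and 5 did on day 4. The share of all genes was not computed for that setting. Scaling shifted the median of all genes by at most 0.05 on the log2 scale in the fit and by at most 0.08 in a single-day difference. *Plagl1* was called for 1KO against WT with pseudocounts of 0.1 and 0.01 and with the minimum of 1 FPKM. More genes were called over the whole table as well. The numbers were 358, 358 and 334 (the last of 13288 genes), against 281 in the main fit. With 1 library per condition, a library of an unusual culture cannot be told from its condition, and these data hold no measure of variation between clones.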

Other observations

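Levels of further imprinted genes in the lines are given here. Their differences are on the log2(FPKM + 1) scale from the same limma fit, which not all of them passed. *Dlk1*, a paternally expressed inhibitor of differentiation on chromosome 12, was at 0.736, 0.405 and 1.24 FPKM in WT on days 0, 2 and 4, at 3.25, 1.77 and 1.46 FPKM in 1KO, and at 2.90, 2.35 and 1.60 FPKM in 1KO+1CI, and its difference of 0.80 between 1KO and WT did not pass (adjusted p = 0.151). *Ndn*, a neighbour of *Snrpn*, was at 11.6, 12.3 and 25.8 FPKM in WT and at 16.9, 17.8 and 30.1 FPKM in 1KO, and did not pass either (0.40, adjusted p = 0.128).

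Among maternally expressed genes, *H19*, the noncoding RNA next to *Igf2*, was at 53.0, 6.80 and 7.98 FPKM in WT, at 516, 86.7 and 184 FPKM in 1KO, and at 197, 87.9 and 189 FPKM in 1KO+1CI. *Grb10*, an adaptor that restrains growth, went the other way, with 40.3, 52.7 and 94.0 FPKM in WT, 14.0, 17.1 and 9.66 FPKM in 1KO, and 16.4, 16.5 and 10.3 FPKM in 1KO+1CI. *Cdkn1c*, a cell cycle inhibitor, was at 17.5, 21.8 and 42.7 FPKM in WT, at 8.32, 11.1 and 4.45 FPKM in 1KO, and at 5.59, 8.86 and 2.48 FPKM in 1KO+1CI. Its difference from WT in limma was −2.12 in 1KO+1CI (adjusted p = 0.04) and −1.63 in 1KO, which did not pass (adjusted p = 0.122).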
